A study of Caenorhabditis elegans with 20 samples.

Results

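Superoxide dismutases, catalases and peroxiredoxins are the enzymes that remove superoxide and peroxides, and 9 of their genes in *C. elegans* were followed here: *sod-1* to *sod-5*, *ctl-2*, *ctl-3*, *prdx-2* and *prdx-3*. Members were the probesets that the annotation of the Affymetrix *C. elegans* GeneChip assigns to these genes, which gave 9 probesets of the 20563 tested. Of these, 8 belong to 1 gene each. The only probeset of *ctl-3* is also assigned to *ctl-1*, so it is called the shared *ctl-1*/*ctl-3* probeset and is read for neither gene alone.

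All worms were of strain DA1316, which carries *avr-14(ad1302)*, *glc-1(pk54)* and a mutation of *avr-15*, given as *ad1250* in the labels and *vu227* in the methods, and so lacks 3 glutamate-gated chloride channel subunits that ivermectin (IVM) acts on. They were grown at 20°C for 53 hr from L1 on OP50 lawns, to a stage called adult, L4 or L4/young adult in different sources. The suspension of each biological replicate was then split for 4 hr between IVM plates and control plates. In one experiment these held 100 ng/ml IVM with 0.001% v/v DMSO or DMSO alone, and in the other 1 µg/ml IVM with 0.01% v/v DMSO or DMSO alone, with 5 replicates and 20 arrays of whole nematodes in all. Wild-type worms were not analysed here, so the values describe this mutant only.

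Superoxide forms mainly as a by-product of mitochondrial respiration, and superoxide dismutases turn it into hydrogen peroxide. Catalases, in peroxisomes and cytosol, and peroxiredoxins, which use thioredoxin, then break the peroxide down. Peroxisomal oxidation of fatty acids is a further source of hydrogen peroxide. In *C. elegans* several of these genes, with *sod-3* the best known, are targets of the FOXO factor DAF-16.

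Values are log2 probeset intensities, and a difference of 1 is a doubling. Array medians lay between 5.58 and 5.71, and no detection calls are part of the table. A pair is the IVM and the control array with the same replicate number. Mean log2 values of marker lists for sperm, oocyte and yolk, intestine, body wall muscle, pharynx and neurons lay between 6.74 and 11.76 on all 20 arrays. Replicate 2 of the 1 µg/ml experiment stood apart in oocyte and yolk markers, with a list mean of 7.27 in the control and 6.74 with IVM, against 10.08 to 11.15 on the other 18 arrays. Both its arrays were also above the other 18 in intestine markers (10.31 and 10.34 against at most 10.24) and in neuronal markers (7.85 and 8.10 against at most 7.71). Its IVM array was below them in sperm markers (9.70 against at least 10.35) and above them in pharynx markers (7.71 against at most 7.52). At 100 ng/ml, the pair of replicate 4 was lower with IVM for *ctl-2*, *ctl-1*/*ctl-3* and *sod-4*, where most of the other pairs were higher. For the members called and for the correlations between members, values are given with and without these pairs. The deposited description text names ABZ, another drug, on 7 arrays of the 100 ng/ml experiment. It conflicts with the titles and exposure labels, which were used. The description text also gives a DMSO share other than those of the methods, and the shares of the methods are given here.

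Both catalase probesets and *sod-4* were higher after 4 hr at 1 µg/ml IVM, by 1.5-fold to 1.7-fold, while the other dismutases and both peroxiredoxins showed no call. Of the 9 member probesets, 3 rose and 0 fell at an adjusted p under 0.05 from limma, against 2.11% of all probesets that rose and 1.37% that fell. The median log2 fold change of the 9 was -0.0014, beside -0.014 over all probesets.

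*ctl-2* encodes the peroxisomal catalase. Its control arrays at 1 µg/ml had log2 values of 9.62, 10.39, 9.32, 9.20 and 8.66 in replicates 1 to 5, and the matched IVM arrays had 10.08, 10.98, 10.14, 9.98 and 9.56. The groups overlapped, since cultures differed by more than the drug effect, with the control of replicate 2 above 4 of the 5 IVM arrays. Within pairs, *ctl-2* was higher with IVM in 5 of 5, by 0.46 to 0.90, as were 7.29% of all probesets in 5 of 5 pairs. The log2 fold change was 0.71 (SE 0.09, n = 5 pairs), or 1.64-fold with a 95% interval of 1.42 to 1.89, with adjusted p = 0.00607 from limma. Without replicate 2 it was 0.74 (adjusted p = 0.00934).

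The shared *ctl-1*/*ctl-3* probeset represents the cytosolic catalase gene *ctl-1* and its neighbour *ctl-3*. Controls at 1 µg/ml had 8.07, 8.73, 7.76, 7.63 and 6.90, and IVM arrays had 8.87, 9.39, 8.49, 8.47 and 7.68. Here too the groups overlapped, but the step within pairs was even, from 0.65 to 0.84. The log2 fold change was 0.76 (SE 0.07, n = 5 pairs), or 1.7-fold with a 95% interval of 1.51 to 1.91, and adjusted p = 0.00213 from limma. Without replicate 2 it was 0.79 (adjusted p = 0.00403). In the RefSeq gene table *ctl-2*, *ctl-1* and *ctl-3* lie next to each other with 0 other protein-coding genes between them. The probesets of *ctl-2* and of *ctl-1*/*ctl-3* both carry the suffix that Affymetrix gives to probes matching several transcripts, so how far they measure separate genes was not tested.

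**Figure D1:**
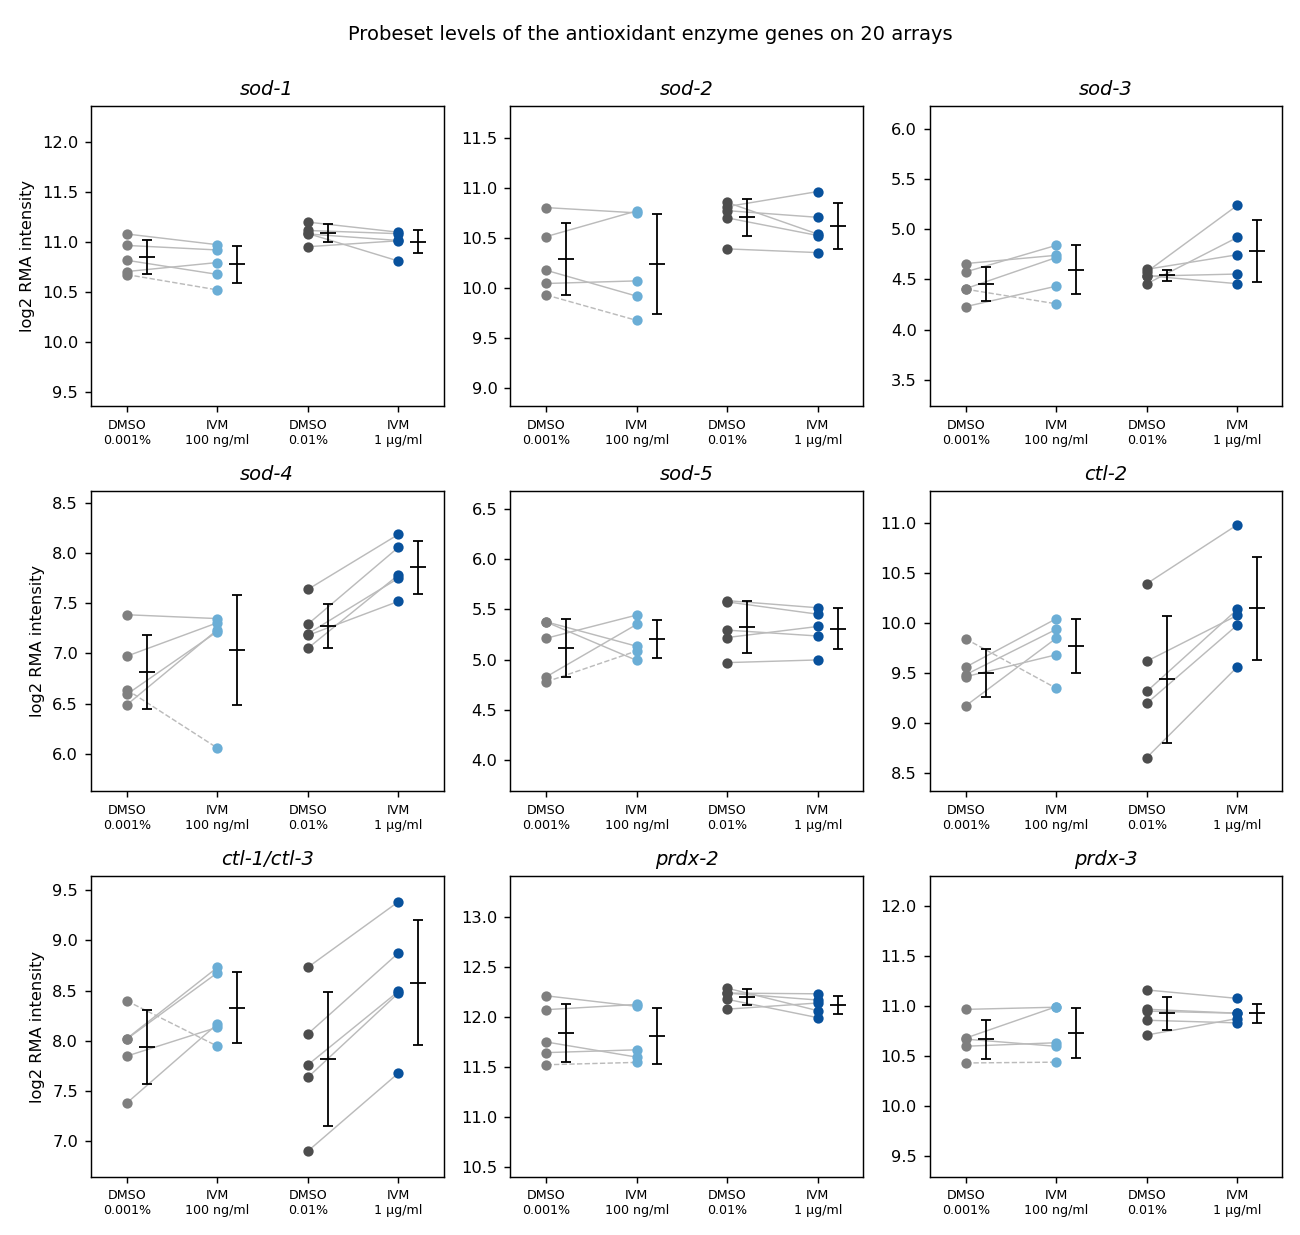
Log2 RMA intensity (y axis, a span of 3 log2 units in every panel) of the 9 member probesets in the 4 groups (x axis), with a point per array, lines joining the arrays of a pair, dashed for replicate 4 at 100 ng/ml, and bars for mean ± SD of 5 arrays. Lines climb in all 5 pairs at 1 µg/ml for *sod-4*, *ctl-2* and *ctl-1*/*ctl-3*, and the dashed line falls for these at 100 ng/ml.

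The array also holds 3 control probesets that its maker named for a *C. elegans* catalase, at the 3′ end, the middle and the 5′ end of the transcript. The annotation assigns them no gene, and they were looked at after the member values were seen. At 1 µg/ml they were higher with IVM in 5 of 5 pairs, with log2 fold changes of 0.72 (SE 0.10), 0.79 (SE 0.07) and 0.92 (SE 0.08) from the 3′ to the 5′ end. Adjusted p from limma was 0.00779, 0.00162 and 0.00162, and 1 for each without the replicate block. Under Rank Products the 3′ and middle probesets did not pass (0.144 and 0.0796), and the 5′ probeset did (0.0264). The 5′ probeset ran from 5.43 to 7.87 in the controls and from 6.51 to 8.57 with IVM, with replicate 5 lowest and replicate 2 highest in both groups. The order of cultures was the same for all 5 catalase probesets at the extremes, replicate 2 highest and replicate 5 lowest. Replicate 2 is the pair that stood apart in the marker lists, and whether this bears on its catalase levels was not tested.

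**Figure D2:**
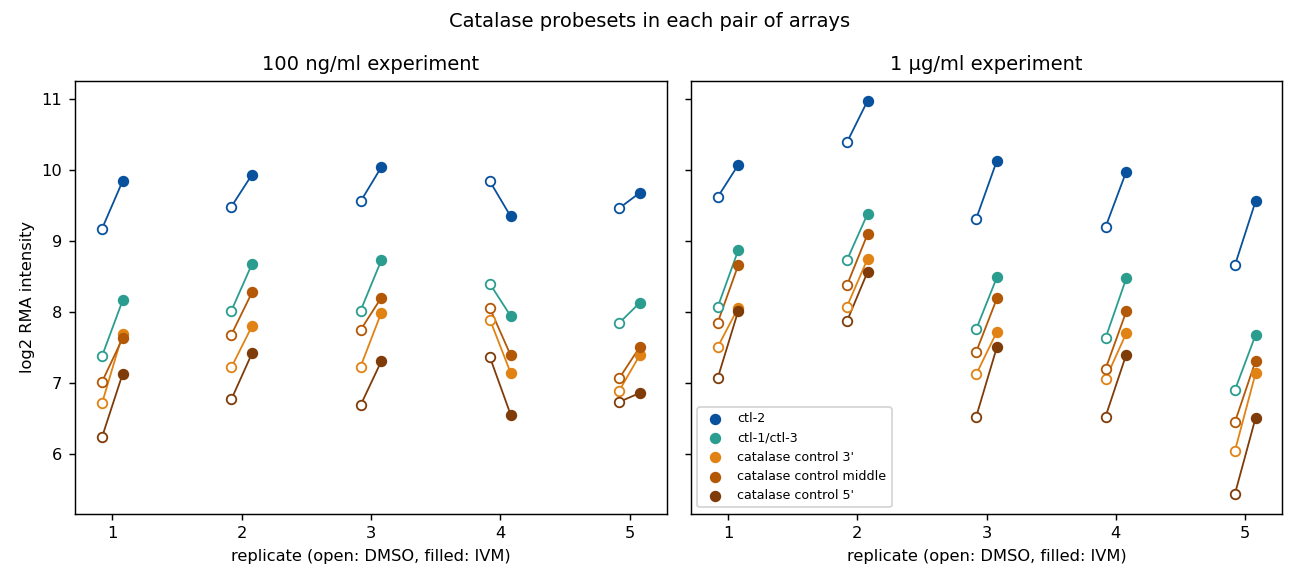
Log2 RMA intensity (y axis) of the 5 catalase probesets in each replicate (x axis), with open points for DMSO, filled points for IVM and a line for each pair. All 5 climb in every pair except replicate 4 at 100 ng/ml, where all 5 drop. Heights of different probesets cannot be compared.

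*sod-4* encodes the extracellular copper/zinc superoxide dismutase. Its log2 values at 1 µg/ml were 7.29, 7.64, 7.05, 7.20 and 7.18 in the controls and 8.06, 8.19, 7.78, 7.75 and 7.52 with IVM. All IVM arrays but that of replicate 5 were above every control, so the groups overlapped by 1 array. The log2 fold change was 0.59 (SE 0.09, n = 5 pairs), or 1.5-fold with a 95% interval of 1.31 to 1.73, with adjusted p = 0.0105 from limma. The 5 differences ran from 0.34 to 0.77. The call of *sod-4* was lost without replicate 1, at 0.54 (adjusted p = 0.0636), and without replicate 4, at 0.60 (adjusted p = 0.0548), and held without replicate 2, at 0.60 (adjusted p = 0.0204). Calls over all probesets fell too, from 434 higher to 145 without replicate 1 and 151 without replicate 4.

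The calls of *sod-4*, *ctl-2* and *ctl-1*/*ctl-3* rest on the pairing. Without the replicate block their adjusted p was 0.243, 1 and 1 with the same fold changes. Rank Products, which the methods name without saying whether it was paired, was run unpaired here. It gave a percentage of false positives, as a fraction, of 0.295, 0.123 and 0.0955. The last of these, for *ctl-1*/*ctl-3*, was under 0.10. The paper lists catalase genes, *ctl-2* and *ctl-1* by name, among those up-regulated at 1 µg/ml at a false discovery rate under 0.10.

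*sod-3* encodes one of the 2 mitochondrial manganese superoxide dismutases. Controls at 1 µg/ml had 4.54, 4.46, 4.53, 4.60 and 4.58, and IVM arrays had 4.46, 4.92, 4.55, 4.75 and 5.24. Controls were tightly grouped while the IVM arrays spread, with replicates 2, 4 and 5 above every control. The log2 fold change was 0.24 (SE 0.12, n = 5 pairs) with a 95% interval of -0.03 to 0.51, higher in 4 of 5 pairs and adjusted p = 0.375 from limma. Its levels were below the array median on all 20 arrays, as were those of *sod-5*, and whether they were above background is not known from this table.

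The other members were level. *sod-1*, the main cytosolic copper/zinc dismutase, *sod-2*, the other mitochondrial manganese enzyme, *sod-5*, a second cytosolic copper/zinc enzyme, *prdx-2*, a cytosolic peroxiredoxin, and *prdx-3*, its mitochondrial counterpart, had log2 fold changes of -0.09 to -0.0014 at 1 µg/ml. Adjusted p was 0.707 to 0.996 from limma, and the 95% intervals of the 5 genes lay within -0.29 and 0.17. The interval of none of these 5 genes reached the smallest fold change among the 3 called probesets, 0.59, or the lower end of its own interval, 0.39. For *sod-5* this says little, since its levels were below the array median on all 20 arrays and may not have been above background. For *prdx-2* the 5 controls ran from 12.08 to 12.29 and the IVM arrays from 11.99 to 12.23, with overlap, and *prdx-3* had means of 10.93 ± 0.16 (SD, n = 5 arrays) and 10.93 ± 0.09 (SD, n = 5 arrays). *sod-2* had 10.71 ± 0.19 (SD, n = 5 arrays) in the controls and 10.62 ± 0.23 (SD, n = 5 arrays) with IVM. *prdx-6*, which was not among the 9 genes and was added after its values were seen, had 0.03 (SE 0.09) and -0.11 (SE 0.11) for its 2 probesets.

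By array, *sod-1* had 10.96, 11.20, 11.09, 11.12 and 11.08 in the 1 µg/ml controls and 11.01, 11.10, 10.81, 11.09 and 11.02 with IVM. Replicate 3 with IVM was the lowest array and the rest overlapped. *sod-2* had 10.86, 10.39, 10.70, 10.81 and 10.77 in the controls and 10.54, 10.36, 10.53, 10.97 and 10.71 with IVM, with replicate 2 lowest in both groups. *sod-5* had 4.97, 5.22, 5.58, 5.29 and 5.59 in the controls and 5.00, 5.33, 5.45, 5.23 and 5.52 with IVM. Replicate 1 was lowest and replicates 3 and 5 were highest in both groups. *prdx-2* had 12.18, 12.08, 12.24, 12.29 and 12.24 in the controls and 11.99, 12.14, 12.17, 12.06 and 12.23 with IVM, and replicate 4 went from the highest control to the second lowest IVM array. *prdx-3* had 10.95, 11.16, 10.86, 10.71 and 10.97 in the controls and 10.93, 11.08, 10.83, 10.88 and 10.93 with IVM, with replicate 2 highest in both groups.

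**Figure D3:**
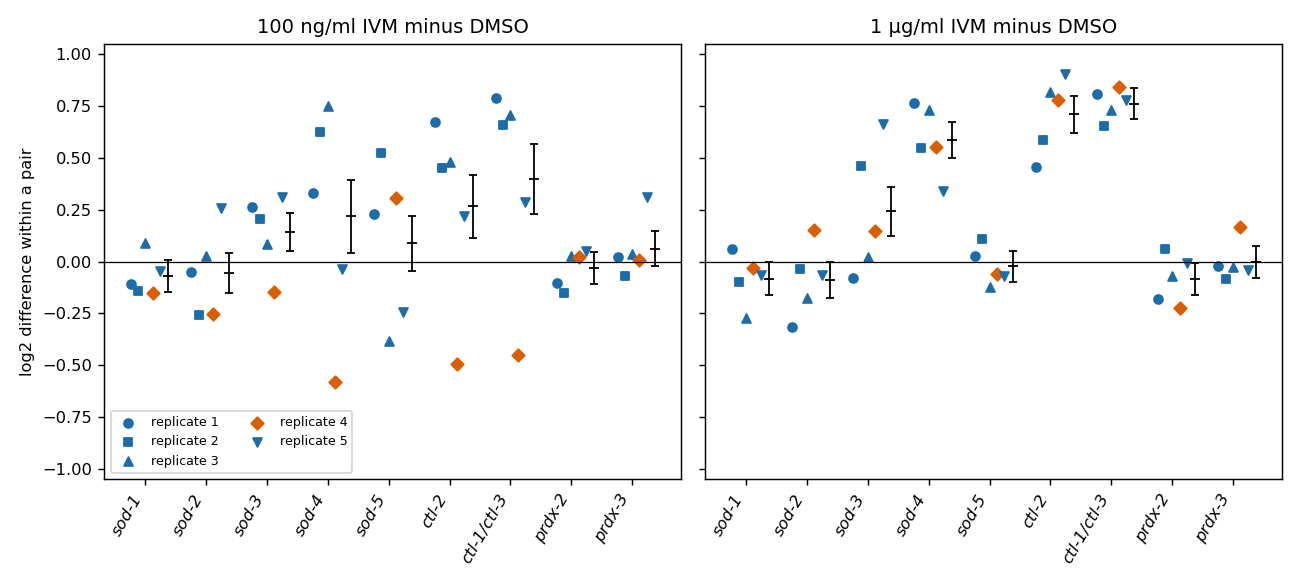
Log2 difference of IVM minus DMSO within a pair (y axis) for each member probeset (x axis), with a symbol per replicate, replicate 4 in orange, and a bar for the fitted mean ± SE. At 1 µg/ml all 5 symbols of *sod-4*, *ctl-2* and *ctl-1*/*ctl-3* lie above 0, and at 100 ng/ml replicate 4 is the lowest symbol for these 3.

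At 100 ng/ml no member passed, as no probeset did: 0% of 20563 had an adjusted p under 0.05 from limma. At an unadjusted p under 0.05 there were 895 probesets, or 4.35%, with *ctl-1*/*ctl-3* the one member among them. The same 3 probesets had the highest mean differences of the 9, at 0.22 to 0.40. For *ctl-2* the controls had 9.17, 9.49, 9.56, 9.84 and 9.47 in replicates 1 to 5, and the IVM arrays 9.85, 9.94, 10.04, 9.35 and 9.68. For *ctl-1*/*ctl-3* the controls had 7.38, 8.02, 8.02, 8.40 and 7.85 and the IVM arrays 8.17, 8.68, 8.73, 7.94 and 8.13. In both, replicate 4 had the highest control and the lowest IVM array of the experiment, and the other 4 pairs were higher with IVM. This pattern, higher in replicates 1, 2, 3 and 5 and lower in replicate 4, was met by 8.35% of all probesets.

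Over all 5 pairs the log2 fold change was 0.27 (SE 0.15, adjusted p = 0.936) for *ctl-2* and 0.40 (SE 0.17, adjusted p = 0.936) for *ctl-1*/*ctl-3*. Without replicate 4 these were 0.46 (SE 0.10, adjusted p = 0.0683) and 0.61 (SE 0.11, adjusted p = 0.0241), so 1 of 9 members rose, against 0.977% of all probesets, and 0 fell, against 0.545%. The 3 catalase control probesets then had 0.71, 0.53 and 0.57 from the 3′ to the 5′ end (adjusted p = 0.0114, 0.0225 and 0.0632). That pair was left out after its values were seen.

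*sod-4* at 100 ng/ml had controls of 6.97, 6.59, 6.49, 6.64 and 7.39 and IVM arrays of 7.31, 7.22, 7.24, 6.06 and 7.35. Only replicates 1 to 3 were higher, by 0.33 to 0.75, replicate 5 differed by -0.04 and replicate 4 by -0.58. Over 5 pairs this came to a log2 fold change of 0.22 with an SE of 0.18 (adjusted p = 0.938), and to 0.42 (SE 0.13, adjusted p = 0.206) when replicate 4 was left out. *sod-3* had 0.14 (SE 0.09) over 5 pairs and 0.22 (SE 0.09, adjusted p = 0.38) without replicate 4. *sod-3* had controls of 4.58, 4.23, 4.66, 4.40 and 4.41 and IVM arrays of 4.84, 4.43, 4.74, 4.26 and 4.72, which overlapped, with replicate 4 the one pair lower with IVM. *sod-5* had controls of 5.21, 4.83, 5.37, 4.78 and 5.38 and IVM arrays of 5.44, 5.35, 4.99, 5.09 and 5.13, with replicates 3 and 5 lower and the other 3 pairs higher. The 5 members *sod-1*, *sod-2*, *sod-5*, *prdx-2* and *prdx-3* had log2 fold changes of -0.07 to 0.09 over 5 pairs, with intervals within -0.27 and 0.39.

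Whether the change differed between doses was tested over 20 arrays with 10 blocks. *ctl-2* had the larger estimate at the higher dose, by 0.44 on the log2 scale with an SE of 0.19 and adjusted p = 0.722 from limma. The same figure was 0.37 with an SE of 0.22 for *sod-4* (adjusted p = 0.793) and 0.36 with an SE of 0.20 for *ctl-1*/*ctl-3* (adjusted p = 0.79). Of the 9 members 0 passed, against 0.00486% of all probesets, and *ctl-2* alone had an unadjusted p under 0.05, as had 6.79% of all probesets. The 95% interval of the difference was 0.03 to 0.86 for *ctl-2*, -0.10 to 0.84 for *sod-4* and -0.07 to 0.80 for *ctl-1*/*ctl-3*, so that of *ctl-2* lay above 0 before adjustment and the other 2 included 0. With replicate 4 left out of the lower dose, they came to 0.25 for *ctl-2*, 0.17 for *sod-4* and 0.15 for *ctl-1*/*ctl-3*. Dose, DMSO share and experiment changed together and cannot be told apart.

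Across the 4 groups, cultures of one condition often differed by more than the drug moved the members. In the 100 ng/ml experiment *sod-2* had 10.80 and 10.52 in the controls of replicates 1 and 5 against 9.93 to 10.18 in replicates 2 to 4, and the IVM arrays split in the same way, 10.75 and 10.77 against 9.68 to 10.07. *prdx-2* split alike, with 12.21 and 12.07 against 11.52 to 11.75 in the controls. Body wall muscle markers had the opposite split, with list means of 8.27 and 8.67 in the controls of replicates 1 and 5 against 9.36 to 9.59 in replicates 2 to 4. Intestine markers split like muscle in these controls, with 9.67 and 9.88 against 10.02 to 10.24. Neuronal markers did too, with 7.04 and 7.25 against 7.29 to 7.57. The other lists did not split this way in the same controls. Pharynx markers were lowest in replicate 4 (7.06), and sperm markers had 11.50 in replicate 5 against 11.45 in replicate 4. Oocyte and yolk markers had 10.72 in replicate 1 against 10.48 in replicate 3. The part of these tissues in the levels of these genes was not tested, and in whole worms fewer cells of a type cannot be told apart from less RNA per cell.

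By mean level, *sod-1*, *sod-2*, *sod-4*, *sod-5*, *prdx-2* and *prdx-3* had both groups of the 1 µg/ml experiment above both of the 100 ng/ml experiment. For *sod-2* the means were 10.24 and 10.30 at 100 ng/ml with IVM and in its controls, and 10.62 and 10.71 at 1 µg/ml with IVM and in its controls, with SDs of 0.19 to 0.50, so neighbours in this order did not differ beyond their spread. *ctl-2*, *ctl-1*/*ctl-3* and *sod-3* were ordered by drug instead. *ctl-2* had control means of 9.44 ± 0.64 and 9.51 ± 0.24 below IVM means of 9.77 ± 0.27 and 10.15 ± 0.52 (SD, n = 5 arrays each), and again neighbours overlapped. For *ctl-1*/*ctl-3*, control means of 7.82 and 7.93 lay below IVM means of 8.33 and 8.58. *sod-3* had control means of 4.45 ± 0.17 and 4.54 ± 0.05 and IVM means of 4.60 ± 0.24 and 4.78 ± 0.31 (SD, n = 5 arrays each). Levels between the 2 experiments were not tested against each other.

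The members did not vary as one block. Among the 5 catalase probesets Pearson's r was 0.96 to 1 over the 10 arrays of the 1 µg/ml experiment and 0.86 to 0.96 over the 10 of the 100 ng/ml experiment. Among *sod-1*, *sod-2*, *prdx-2* and *prdx-3*, r was 0.87 to 0.98 at 100 ng/ml but -0.60 to 0.38 at 1 µg/ml. Over all 20 arrays it was 0.72 to 0.91, which includes the difference in level between experiments. Each of these genes also spread less at 1 µg/ml. The SD of *prdx-2* was 0.08 in the controls and 0.09 with IVM there, against 0.29 and 0.28 at 100 ng/ml. The low r at 1 µg/ml therefore does not show that their likeness was lost. *ctl-2* and *ctl-1*/*ctl-3* ran against *sod-2* and *prdx-2* in both experiments, with r of -0.74 to -0.63 at 1 µg/ml and -0.58 to -0.21 at 100 ng/ml. Without replicate 2 at 1 µg/ml, over 8 arrays, the range widened to -0.82 to -0.32, with *sod-2* at the weak end, and without replicate 4 at 100 ng/ml it was -0.69 to -0.45. With *ctl-2* and *ctl-1*/*ctl-3*, *prdx-3* had r of 0.51 and 0.43 at 1 µg/ml, and -0.05 and -0.07 without replicate 2. *sod-1* had -0.01 with both at 1 µg/ml, and -0.59 and -0.46 without replicate 2. At 100 ng/ml *prdx-3* had -0.13 and -0.38, and *sod-1* had -0.22 and -0.48. *sod-4* went with the 2 catalase members at 1 µg/ml (r of 0.86 and 0.87), where r includes the drug response of these 3 called probesets. At 100 ng/ml *sod-4* had r of 0.62 to 0.69 with *sod-1*, *sod-2*, *prdx-2* and *prdx-3*, and 0.43 and 0.22 with the 2 catalase members. Without replicate 4 at 100 ng/ml, r was 0.37 to 0.44 with the former and 0.40 and 0.27 with the latter. Without these pairs r was 0.95 to 1 and 0.85 to 0.98 among the catalase probesets, and 0.83 and 0.84 for *sod-4* with the 2 catalase members at 1 µg/ml. Among *sod-1*, *sod-2*, *prdx-2* and *prdx-3* it was -0.34 to 0.57 at 1 µg/ml and 0.80 to 0.99 at 100 ng/ml. These are descriptions over arrays that share cultures in pairs, and paired arrays are not independent.

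**Figure D4:**
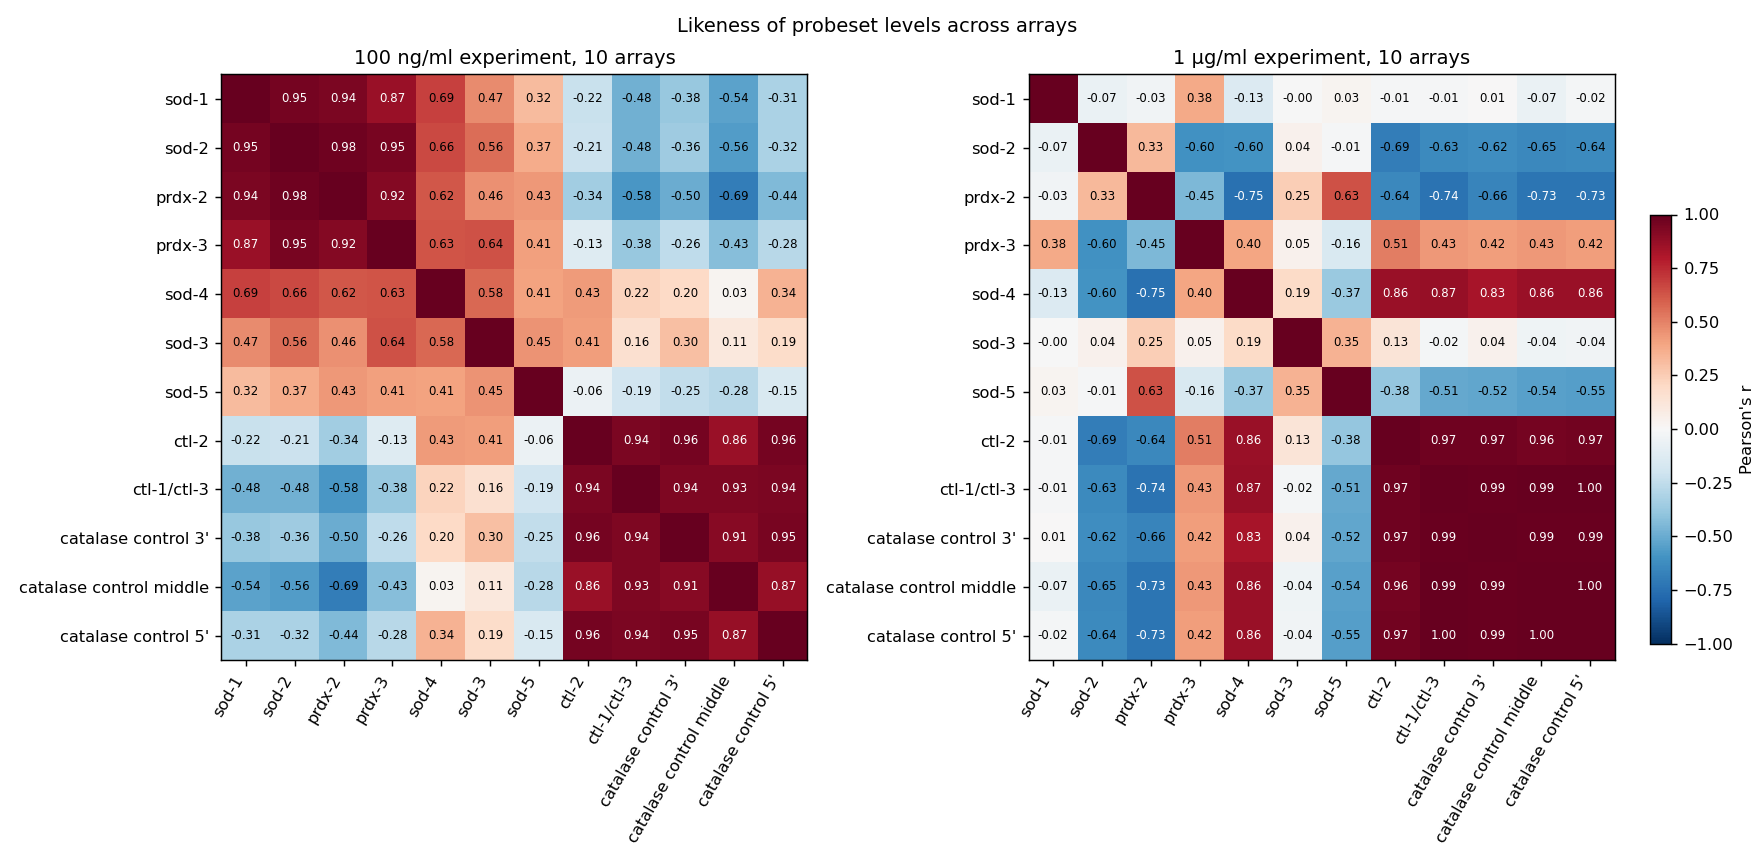
Pearson's r between probeset levels over the 10 arrays of each experiment, written in each cell and coloured from -1 (blue) to 1 (red). The catalase block stays red in both panels, and the block of *sod-1*, *sod-2*, *prdx-2* and *prdx-3* is red at 100 ng/ml only.

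Genes with the levels most like a called member over all 20 arrays, among probesets of 1 gene, were ranked by Pearson's r. For *ctl-2* these were *adah-1* (r = 0.95), the gut esterase gene *ges-1* (0.95), the acyl-CoA oxidase gene *acox-3* (0.94), T20B3.1 (0.94) and *tsct-1* (0.93). For the *ctl-1*/*ctl-3* probeset they were *ges-1* (r = 0.96), *ctl-2* (0.96), the flavin-containing monooxygenase gene *fmo-1* (0.94), T20B3.1 (0.94) and T02C5.1 (0.94). *ges-1* and T20B3.1 stood in both rankings. For *sod-4* they were *nhj-1* (r = 0.93), Y22D7AL.15 (0.92), *nmad-1* (0.92), the nuclear hormone receptor gene *nhr-64* (0.92) and *tag-234* (0.91). The arrays hold drug and control worms of both experiments, so these values include the response to the drug. Without the same pairs, over 16 arrays, r with these genes was 0.90 to 0.95 for *ctl-2*, 0.92 to 0.96 for *ctl-1*/*ctl-3* and 0.84 to 0.92 for *sod-4*.

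Other genes that handle peroxides and superoxide were counted by list at the same dose. Of 8 glutathione peroxidases, which reduce peroxides with glutathione, 1 rose and 0 fell at 1 µg/ml, with a median log2 fold change of 0.0034. The one that rose was *gpx-3*, from a mean of 6.58 to 7.88, by 1.31 (SE 0.21, adjusted p = 0.013 from limma) and in 5 of 5 pairs, a call that was lost without replicate 1 (adjusted p = 0.0516) or without replicate 4 (adjusted p = 0.0685) and without the replicate block (adjusted p = 0.108). Fewer probesets of the whole array were called without replicate 1 or replicate 4 as well. Under Rank Products *gpx-3* passed (0.00104). *gpx-6* had 0.38, *gpx-1* -0.26 and *gpx-7* -0.21, each short of the threshold. At 100 ng/ml *gpx-3* had 0.51 (SE 0.25, adjusted p = 0.936) and, without replicate 4, 0.85 (adjusted p = 0.00671).

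Of 15 measured genes of the thioredoxin, glutaredoxin and glutathione system, 0 passed in limma. The lowest p belonged to *msra-1*, which encodes the enzyme that repairs oxidised methionine, with -1.08 (SE 0.24, adjusted p = 0.0512) and lower in 5 of 5 pairs. *glrx-5* had -0.37, the glutathione synthetase gene *gss-1* -0.41 and *glrx-10* -0.25. The median of the list was -0.06.

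The sources of superoxide and peroxide were measured too. Of 20 measured genes of the electron transport chain 0 passed, with a median of -0.01, and the lowest p was that of *ucr-2.1* in complex III, at 0.34 (SE 0.08, adjusted p = 0.0695). *nuo-4* had 0.27, *sdha-1* -0.20 and *ucr-1* 0.21. Of 5 measured peroxisomal acyl-CoA oxidases, which make hydrogen peroxide as they start fatty acid breakdown, 2 rose and 1 fell. *acox-3* rose by 1.41 (SE 0.17, adjusted p = 0.00495) and *acox-1.6* by 0.61 (SE 0.08, adjusted p = 0.00813), while *acox-1.5* fell by 0.72 (SE 0.16, adjusted p = 0.0444). The fall of *acox-1.5* was called only with all of replicates 1, 3, 4 and 5 (adjusted p up to 0.18 with one of them left out), and was lost after quantile normalization again (adjusted p = 0.0672) and under Rank Products (0.0503). The rise of *acox-1.6* did not pass under Rank Products either (0.229), while that of *acox-3* did (0.000179). *acox-1.2* had -0.95 (SE 0.29, adjusted p = 0.139). Without the replicate block none of the 3 calls held.

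Peroxins, the proteins that build peroxisomes, had 0 of 11 genes past the threshold and a median of -0.04. *prx-10* had 0.44, *prx-11* -0.26, *prx-14* -0.16 and *prx-2* -0.14. Genes of NADPH supply had 0 of 6, with 0.40 for the malic enzyme gene *men-1*, 0.63 for the transhydrogenase gene *nnt-1*, -0.34 for T25B9.9 and -0.33 for the glucose-6-phosphate dehydrogenase gene *gspd-1*. Of 13 measured regulators of the oxidative stress response 0 passed. Of these, 11 had a positive log2 fold change and the median was 0.14, beside -0.014 over all probesets. Such a lean was not particular to this list, since 7 of 7 body wall muscle, 7 of 7 pharynx and 7 of 8 neuronal markers were also positive. Sperm markers (3 of 22 positive) and oocyte and yolk markers (4 of 15) leaned the other way. *wdr-23*, which restrains SKN-1, had 0.40 (SE 0.11, adjusted p = 0.102), *daf-16* 0.34 (SE 0.12, adjusted p = 0.202), *skn-1* 0.43 (SE 0.17, adjusted p = 0.278) and *sgk-1* 0.24 (SE 0.11, adjusted p = 0.314).

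**Figure D5:**
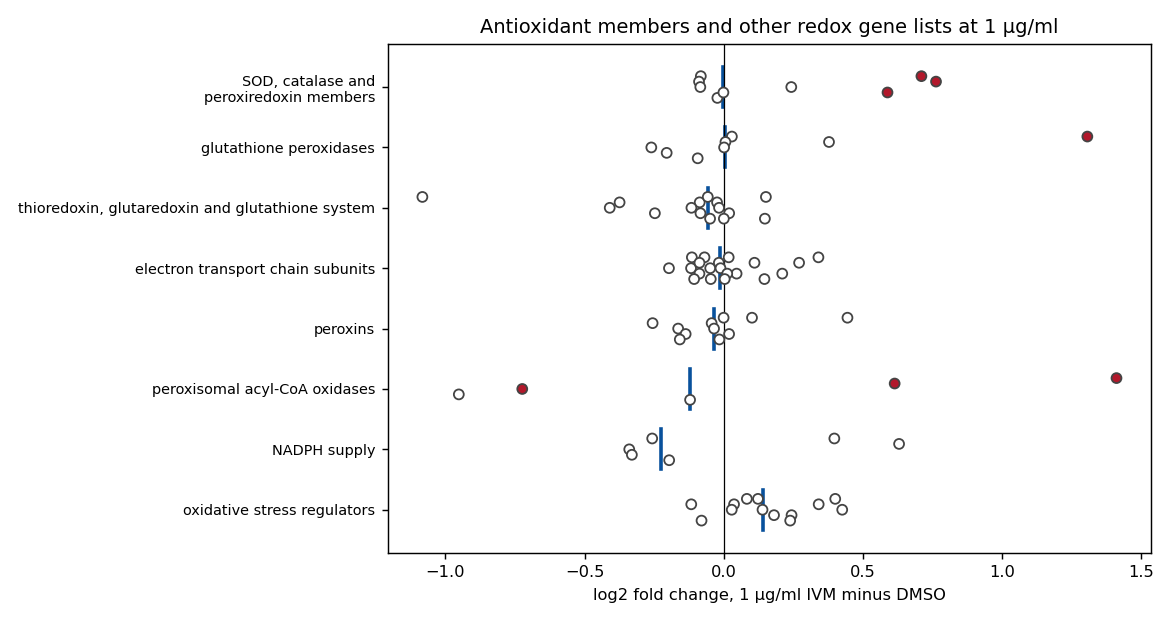
Log2 fold change at 1 µg/ml IVM (x axis) of the member probesets and of each gene of 7 redox lists (rows), filled where adjusted p was under 0.05 in limma, with a blue bar at the median of the row. Medians lie between -0.23 and 0.14, and the filled points are 3 members, *gpx-3* and 3 acyl-CoA oxidases.

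Tissue markers were set beside the members at the same dose. Of 9 measured intestine markers at 1 µg/ml, 1 rose, *ges-1* (0.91), and 2 fell, *pept-1* (-0.71) and *act-5* (-1.11), with a median log2 fold change of 0.24 and list means of 9.45 to 10.31 in the controls and 9.51 to 10.34 with IVM. All 7 body wall muscle and all 7 pharynx markers had positive log2 fold changes, with medians of 0.20 and 0.17 and 0 past the threshold, and 1 of 8 neuronal markers rose, *egl-21*. Of 22 sperm and of 15 oocyte and yolk markers 0 passed, with medians of -0.07 and -0.15. The part of these tissues in the rises of the 3 members was not tested.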

How the data were processed

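Biotin-labelled RNA from whole DA1316 nematodes was hybridised to 20 Affymetrix *C. elegans* GeneChips. The deposited values are on a log2 scale and were summarised per probeset by the authors with RMA, for which no version is given in the sources used here, and RMA equalises the distributions of arrays, so a shift shared by most genes would not show. The table has 20575 probesets. Dropping its 12 spike-ins gave 20563 for the tests, however dim. The platform annotation gives 1 gene for 19181 probesets, several for 803 and none for 579, and 19122 of the former are in the RefSeq table of WBcel235. Precision is limited by the 5 pairs per dose, with 4 residual degrees of freedom.

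Each dose was fitted in limma 3.58.1 (R 4.3.3) on its own 10 arrays, blocked by replicate, and Benjamini-Hochberg adjustment ran over every probeset tested. Errors of log2 fold changes are moderated standard errors. The pairing comes from the methods, in which each replicate's suspension was split. After each condition's mean was subtracted, same-numbered arrays correlated in every pair, with r from 0.499 to 0.884 in the 1 µg/ml experiment and from 0.553 to 0.883 in the other. In each experiment only 4 of the 5 IVM arrays correlated best with the control of their own number. Rank Products used 100 permutations in numpy 2.4.6, unpaired. For lists, a gene was its brightest probeset of 1 gene. All probesets of the members were named, with up to 4 genes per list by p at 1 µg/ml, and 5 by likeness for each called member. Members and lists were chosen with earlier results of these data known. Fits were tested on simulated data. Alternatives were no block, all 20 arrays, quantile normalization again, median centring, brighter probesets only, trended robust eBayes, array weights, an adjusted p under 0.10, Rank Products and each replicate left out. Correlations without the pairs of replicate 2 at 1 µg/ml and replicate 4 at 100 ng/ml, and lists without the latter, were added after seeing the data.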

Additional observations from a re-analysis of the deposited data

Results flagged for a closer look

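For the 12 probesets described, 48 sets of 5 levels and 24 sets of 5 pair differences were looked at for a value far from the others, and 6 were found, where chance gives about 1 in 20. The level of *sod-4* with 100 ng/ml IVM was 6.06 in replicate 4, far below the other 4 arrays. In the same pair, the differences of the 3′ and middle catalase control probesets at 100 ng/ml were -0.75 and -0.66, the lowest of 5. At 1 µg/ml the 3′ catalase control probeset had its highest difference, 1.096, in replicate 5. *prdx-3* had its highest differences in replicate 4 at 1 µg/ml, 0.16, and in replicate 5 at 100 ng/ml, 0.31. No member had a dose difference past the threshold.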

How the results depend on the processing

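At 1 µg/ml limma called 434 probesets higher and 281 lower, 3 members among the former. Without the replicate block these were 45, 19 and 0, under Rank Products 175, 122 and 0, and at an adjusted p under 0.10 the counts over all probesets were 701 and 533. Leaving out a replicate in turn gave 145 to 510 higher, 60 to 267 lower and 2 to 3 members higher, with 145 and 60 without replicate 1 and 151 and 67 without replicate 4. At 100 ng/ml, where 0 were called, Rank Products gave 38 higher and 5 lower and 0 members, and leaving out a replicate gave 0 to 201 higher, 0 to 112 lower and 0 to 1 member higher. For the difference between doses 1 probeset was higher, against 3 with array quality weights, 0 without the replicate block and 0 to 4 with a replicate left out. The causes were not tested.

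Members that changed sign did so around 0 and were called in no case. Quantile normalization again gave 0.039 for *prdx-3* at 1 µg/ml, and for the difference between doses 0.033 for *sod-1* and 0.017 for *sod-2*. Array quality weights gave 0.014 for *prdx-3* at 1 µg/ml and 0.024 for the dose difference of *sod-1*. With a replicate left out, *sod-5* ranged from -0.056 to 0.0018 at 1 µg/ml and from -0.022 to 0.20 at 100 ng/ml, and *prdx-3* from -0.043 to 0.019 and from -0.0017 to 0.094. The dose difference ranged from -0.047 to 0.037 for *sod-1*, from -0.092 to 0.046 for *sod-2*, from -0.0058 to 0.18 for *sod-3* and from -0.10 to 0.00032 for *prdx-3*.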
